A study of Mus musculus with 24 samples.

Results

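The genes described here encode the proteins of the cytoplasmic ribosome. They were taken by symbol: Rpl or Rps followed by a number, with an optional letter or an l or l1 suffix, together with Rplp0, Rplp1 and Rplp2. Pseudogenes, S6 kinase genes and genes on the X chromosome were left out. This gave 80 of the 37315 genes in each table, of which 49 belong to the large ribosomal subunit and 31 to the small one. Rpsa, Rps3a1 and the X-linked Rpl10, Rpl36a, Rpl39 and Rps4x fall outside this rule.

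The study asked how far replicate libraries agree in allelic imbalance (AI), the share of a gene's allelic counts that carry the maternal allele. Every sample came from female 129S1/SvImJ x CAST/EiJ F1 material, and an allelic count is a read base over a site where both strains differ. One adult kidney gave a single RNA preparation, from which 6 libraries each were made with the NEBNext Ultra poly-A kit from 100 ng (Experiment 1), the SMARTseqv4 kit from 10 ng (Experiment 2) and the same kit from 100 pg (Experiment 3). Abl.1 and Abl.2 are clonal B-cell lines immortalised with the Abelson virus, each a single clone kept in growth medium without drug and represented by 2 SMARTseqv4 libraries from 10 ng. Both Abl.2 libraries were sequenced again on another day. All groups are untreated controls, all kidney libraries share 1 animal, and the p-values below therefore measure only the spread between libraries. Kidney reads were single-end reads of 75 bases and clone reads were paired-end reads of 150 bases, made on another sequencer after another RNA extraction, so tissue and technique cannot be told apart where the kidney is set against the clones.

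Totals were 6138693 to 6702351 allelic counts in the kidney libraries and 19213150 to 22241719 in the clone libraries. The 7 kidney markers summed to 17980 CPM (counts scaled to a common library total) or more in every kidney library and to 32.1 or less in the clones, where Lrp2, Kap and Slc12a1 were at 0. The 8 B-lymphoid markers, Cd79a and Pax5 among them, summed to 6398 CPM or more in the clones and to 22.8 or less in the kidney. The libraries of Abl.1 stood apart from each other: a chi-square comparison of their counts gave 101 per gene, against 9.95 for the Abl.2 pair and 2.15 to 7.55 for pairs of kidney libraries. Replicate 1 of Experiment 1 stood apart from the other 5 libraries of its group, at 5.71 to 7.39 against 3.04 to 4.24 among the others.

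Ribosomal proteins fold around the ribosomal RNAs into a large subunit, which joins amino acids, and a small subunit, which reads the message. Their messages are among the most abundant in any growing cell, and many begin with a run of pyrimidines (the TOP motif) through which mTOR signalling sets their translation. Because these messages are short and abundant, they have often been copied back into the genome as intronless processed pseudogenes, so that short reads from a ribosomal protein gene may match several places.

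That redundancy was measured on the GENCODE M21 transcripts. Of the 77 genes with a coding transcript, the median had 47.9% of its 75-base windows identical to a stretch of another gene's transcript, while the median over 20647 other autosomal protein-coding genes was 0%. With 150-base windows the median of the ribosomal protein genes was 27.8%. More than 50% of the 75-base windows were shared in 36 of the 77 genes (46.8%), compared with 7.18% of the other genes. The range was wide. Rps27, Rpl5 and Rpl9 shared 98.5%, 92.5% and 91.3% of their windows, whereas Rpl39l, Rpl3l and Rps3 shared none. Mitochondrial ribosomal proteins, which carry out the same work in the mitochondrion, had a median of 0.353% (78 genes).

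The coding stretch below belongs to Rpl35a, one of the genes whose AI differed most between kidney and clones, and stands above the matching stretch of a processed pseudogene. Of the pseudogenes with at least 75 identical bases in a row, the one with the most counts is shown. Capitals mark the bases at which both differ, and positions are GRCm38. Rpl35a (ENSMUSG00000060636, chr16:33056453-33060189) has its stretch in 2 coding exons within chr16:33057400-33058685 on the plus strand, and its copy Gm12778 lies at chr7:34175733-34175882 on the plus strand.
Rpl35a: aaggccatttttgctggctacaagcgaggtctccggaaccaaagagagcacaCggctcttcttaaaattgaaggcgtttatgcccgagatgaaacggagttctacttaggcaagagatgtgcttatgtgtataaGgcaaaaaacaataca
Gm12778: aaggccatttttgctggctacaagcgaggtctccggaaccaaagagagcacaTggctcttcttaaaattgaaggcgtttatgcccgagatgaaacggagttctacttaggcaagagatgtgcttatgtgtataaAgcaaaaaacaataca
Over these 150 bases Rpl35a differed from the copy at 2 bases, and the longest run without a difference within them was 81 bases. This copy was chosen after its values were seen.

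RefSeq start sites of GRCm38.p6 were searched on the gene's strand for the TOP motif, read as a C at the start followed by at least 4 bases that are each C or T. The motif stood exactly at the start in 13 of 69 promoters of ribosomal protein genes (18.8%) and in 2.47% of 32782 other promoters, and it began within 5 bases in 43.5% and 18.3% of them, respectively. None of 75 promoters of mitochondrial ribosomal proteins had it at the start, and 22.7% had it within 5 bases. Rplp0, Rps12, Rpl4 and Rpl22, which return in the comparisons, had no motif within 5 bases of the start. The windows below run from 10 bases before the start to 20 bases from it and show the tract in capitals. They were picked from returning genes that have the motif exactly at the start. They lie at chr14:18270967-18270996 on the minus strand (Rpl15), chr11:114668570-114668599 on the plus strand (Rpl38), chr17:27635225-27635254 on the minus strand (Rps10), chr7:118116128-118116157 on the minus strand (Rps15a) and chr4:86857348-86857377 on the minus strand (Rps6).
Rpl15: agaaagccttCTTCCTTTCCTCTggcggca
Rpl38: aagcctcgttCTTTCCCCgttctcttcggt
Rps10: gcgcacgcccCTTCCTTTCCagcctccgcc
Rps15a: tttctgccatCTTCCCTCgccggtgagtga
Rps6: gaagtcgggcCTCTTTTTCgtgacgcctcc

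The ribosomal protein genes held 1.39% to 1.61% of a library's allelic counts with NEBNext (Experiment 1). With SMARTseqv4 they held 1.12% to 1.15% at 10 ng and 1.06% to 1.10% at 100 pg. In the clones the share was 3.91% to 4.72% (Abl.1) and 3.63% to 3.8% (Abl.2). These shares rest on the sites where the strains differ, and a gene with more such sites collects more counts, so levels were compared between libraries and not between genes. In Experiment 2 the largest parts of the genes' counts came from Rps27l (10.1%), the p53-induced paralog of Rps27, then Rplp0 (9.37%), the base of the large-subunit stalk, Rps3 (7.0%), which lines the mRNA entry channel, Rps9 (5.58%) and Rps19 (5.53%), whose human counterpart is mutated in Diamond-Blackfan anaemia. In the clones Rps2 led Abl.1 with 5.44% and Rplp0 led Abl.2 with 5.80%. Rpl22l1, Rpl31, Rpl35, Rpl39l, Rps12l1, Rps25, Rps27 and Rps4l had no count in any library. Where a site can be counted, this allows up to 3 counts in a library. Without such a site or unique reads, a missing count gives no level of the gene. Rps16 had no count in the kidney and at most 7 in a clone library. The paralogs known from testis or muscle had no or few allelic counts: Rpl10l reached a few counts in Experiments 1 and 2 only, and Rpl3l had at most 3 in any kidney library.

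The first comparison set both kits against each other on the same kidney RNA. The input changed with the kit, from 100 ng to 10 ng, so kit and input cannot be told apart in it. Between Experiment 2 (SMARTseqv4) and Experiment 1 (NEBNext), 62 ribosomal protein genes could be tested for abundance. In edgeR's quasi-likelihood test 19 were higher with SMARTseqv4, against a background of 38.3% of all genes tested, and 31 were lower, against 39.6%. Large-subunit genes split 12 higher to 20 lower and small-subunit genes 7 to 11. Scaling by library totals in place of TMM moved the median of all genes by -0.36 on the log2 scale and turned the split into 13 higher and 44 lower. The median of the ribosomal protein genes stood at -0.16 relative to that of all genes under both (-0.20 against -0.03 with TMM). Without replicate 1 of Experiment 1, 52 genes passed in place of 50.

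Rps27l, the paralog induced by p53, lay at 319 CPM in the lowest, 327 in the median and 370 in the highest library of Experiment 1, and at 1122, 1144 and 1171 CPM in Experiment 2. No library of one group reached the other, and the gene was 2.14 ± 0.03 (SE) higher on the log2 scale with SMARTseqv4 (adjusted p = 2.86e-27). Rpl27, at 3.54, 6.84 and 9.10 CPM in Experiment 1, was at 31.6, 34.4 and 39.0 CPM in Experiment 2, a log2 difference of 2.74 ± 0.14 (adjusted p = 3.85e-16). Rpl13 (log2 1.08 ± 0.04), Rps21 (1.17 ± 0.10), Rplp0 (0.72 ± 0.03) and Rpl7l1 (0.82 ± 0.05), a paralog of Rpl7 that acts in large-subunit assembly, also rose. Rps12, by contrast, lay at 354, 377 and 437 CPM in Experiment 1 and at 57.3, 62 and 64.1 CPM in Experiment 2, so that it fell by 2.28 ± 0.05 on the log2 scale (adjusted p = 8.13e-24). Rps28, a small protein near the mRNA exit, lay at 532, 563 and 583 CPM and then at 121, 136 and 146 CPM, with a log2 difference of -1.69 ± 0.04 (adjusted p = 4.97e-23). Rpl22 (-1.15 ± 0.07), Rps15a (-1.10 ± 0.08), Rpl9 (-1.02 ± 0.05), Rpl7 (-0.997 ± 0.044) and Rps10 (-0.99 ± 0.07) were lower as well. The partners of the stalk went apart, with Rplp0 higher and Rplp1 lower (-0.60 ± 0.05). Paralogs did too, since Rpl7l1 rose and Rpl7 fell. Across 53 of these genes the log2 difference had a Spearman rho of 0.09 with transcript length and 0.15 with GC content, given as a description over genes that share their libraries.

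**Figure D1:**
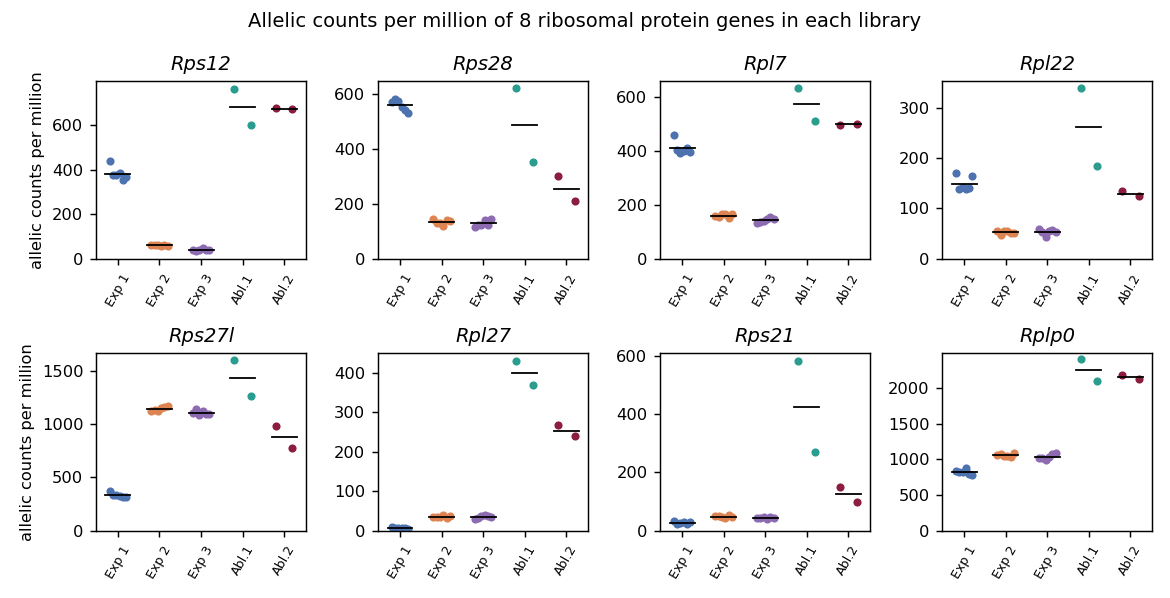
Allelic CPM (y axis, linear, from 0) of 8 ribosomal protein genes in each library (points) of the 5 groups (x axis), with the group mean as a black line. Rps12 and Rps28 lie higher in Experiment 1 than in Experiments 2 and 3, Rps27l and Rpl27 lie lower, and both libraries of Abl.1 are spread widely for Rps21 (269 and 583).

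Mitochondrial ribosomal proteins moved as a block between the kits: 67 of 70 were higher with SMARTseqv4 and none was lower, with a median log2 difference of 1.60. Translation factors of the TOP class, such as elongation factors and Pabpc1, split 5 higher to 7 lower of 14, and ribosome biogenesis genes 8 to 9 of 24.

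Lowering the input from 10 ng to 100 pg with the same kit gave smaller differences. Of 62 genes, none was higher in Experiment 3 (background 8.84%) and 17 were lower (background 6.98%). An unadjusted p under 0.05 was found for 26 of them and for 3232 of all 11690 genes tested. The median log2 difference of the 62 genes was -0.08, against -0.000709 over all genes. Rpl4, which lines the exit tunnel for the growing chain, lay at 378, 388 and 400 CPM in Experiment 2 and at 288, 309 and 317 CPM in Experiment 3, without overlap (log2 -0.36 ± 0.03, adjusted p = 1.96e-07). Rps12 fell again, from a median of 62 CPM to 36.6, 41.4 and 47.8 CPM (-0.58 ± 0.07, adjusted p = 2.13e-05). Rpl7a (-0.28 ± 0.05) and Rps20 (-0.24 ± 0.06) fell with ranges that did not overlap, whereas the ranges of Rplp1 (-0.29 ± 0.07), Rpl26 (-0.25 ± 0.05) and Rps10 (-0.32 ± 0.09) overlapped although they passed the test. The call for Rps10 was lost without replicate 2 of Experiment 2 (adjusted p = 0.0511). Rps27l, with 1091 to 1143 CPM in Experiment 3, missed the threshold (-0.05 ± 0.02, adjusted p = 0.0804). The input and kit comparisons share the libraries of Experiment 2.

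Allelic counts of these genes made up more of the clone libraries than of the kidney libraries. Of 67 genes tested, 62 were higher in Abl.1 than in Experiment 2, made with the same kit and input (background 38.0%), and none was lower (background 47.6%). In Abl.2, 57 of 66 were higher (background 40.4%) and 6 were lower (background 50%). The median log2 difference was 1.77 in Abl.1 and 1.12 in Abl.2, while the medians of all genes were -0.31 and -0.33. Library totals moved the median of all genes by 0.49 in Abl.1 and 0.82 in Abl.2 and gave 65 and 62 higher, with 0 and 2 lower. In these bulk samples a different mix of cells and a different amount of message per cell cannot be told apart, and both comparisons use the same kidney libraries. Read length and layout changed with the tissue as well. The genes shared a median of 47.9% of their windows at 75 bases and 27.8% at 150 bases. The part of read length in these differences was not tested.

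Rps2, at the mRNA entry channel, lay at 130, 137 and 140 CPM in Experiment 2, at 2470 and 2217 CPM in Abl.1 and at 2058 and 2020 CPM in Abl.2. That is 3.63 ± 0.07 higher on the log2 scale in Abl.1 (adjusted p = 4.12e-13) and 3.09 ± 0.03 higher in Abl.2 (adjusted p = 2.59e-21). Rpl3, next to the peptidyl transferase centre, rose from 147, 161 and 177 CPM to 1282 and 1247 CPM in Abl.1 and 1306 and 1334 CPM in Abl.2. Rps24 had only 3.29 to 5.63 CPM in Experiment 2 against 517 and 395 CPM in Abl.1, and Rpl23a, a docking site for nascent chain factors at the exit tunnel, had 0 to 0.939 CPM against 338 and 323 CPM. Their fitted differences of 6.25 ± 0.16 and 9.10 ± 0.23 in Abl.1 rest on at most 36 and 6 counts in a kidney library. Of their transcripts' 75-base windows, 13.7% (Rps24) and 81.7% (Rpl23a) are shared with other genes. Rplp0 differed by less than Rplp1 did (0.60 ± 0.07 in Abl.1 and 0.20 ± 0.03 in Abl.2), while Rplp1 was 2.60 ± 0.14 and 1.27 ± 0.05 higher.

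Rps27l did not follow. With 1608 and 1268 CPM in Abl.1, above its kidney CPM, it missed the threshold after TMM scaling (-0.15 ± 0.10, adjusted p = 0.155), and with 987 and 774 CPM in Abl.2 it was lower than in Experiment 2 (-1.20 ± 0.06, adjusted p = 5.88e-12). Rps29, Rpl37a and Rpl38 were also lower in Abl.2 (-0.86 ± 0.10, -0.52 ± 0.04 and -0.50 ± 0.10). With library totals Rps29 no longer passed (-0.03) and Rpl37a and Rpl38 turned to 0.30 and 0.32. In CPM, which uses library totals, Rpl37a lay at 294 to 323 in Experiment 2 and 390 and 371 in Abl.2. The TOP-class translation factors followed the ribosomal protein genes, with 14 of 14 higher in Abl.1 and 13 of 14 in Abl.2, and so did the biogenesis genes, with 24 and 23 of 24. Mitochondrial ribosomal proteins split 47 higher to 8 lower of 72 in Abl.1 and 17 to 48 of 71 in Abl.2.

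**Figure D2:**
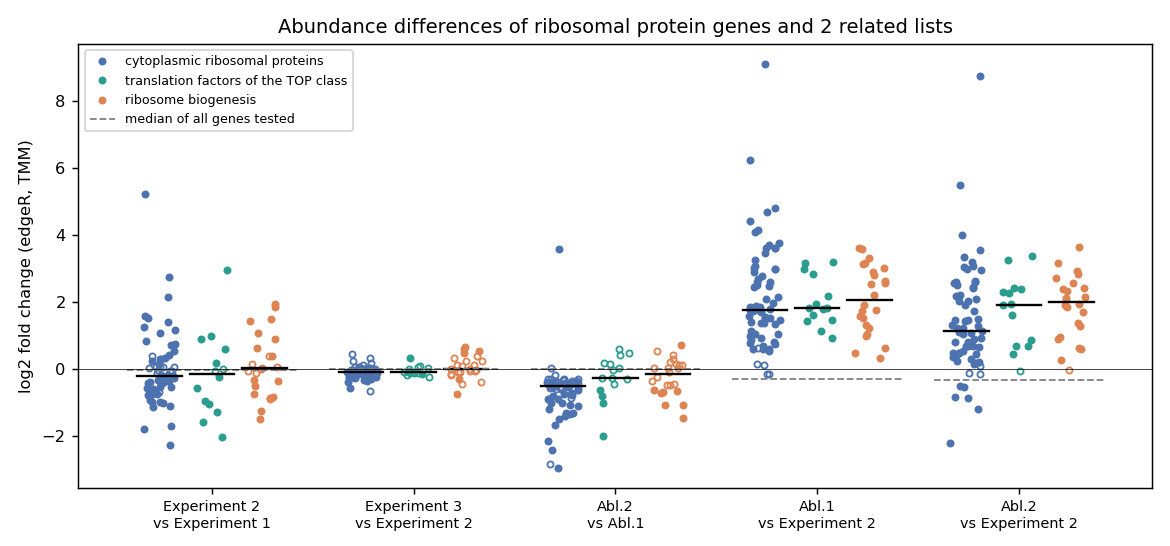
Log2 fold changes (y axis, edgeR with TMM) of the ribosomal protein genes, the TOP-class translation factors and the ribosome biogenesis genes in 5 comparisons (x axis). Each point is a gene, filled where it passed the test and open where it did not, black bars are list medians and dashed lines the median of all genes tested. The ribosomal protein genes centre at 1.77 and 1.12 for the clones against Experiment 2 and close to 0 for the input comparison.

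Between the clones 70 genes were tested, and 22 were lower in Abl.2 (background 24.6%) while only the thinly covered Rpl3l was higher (background 21.8%). The median log2 difference was -0.51, against 0.01 for all genes. Rpl36al, a retained copy of Rpl36a, lay at 16.0 and 18.5 CPM in Abl.1 and at 2.90 and 2.80 CPM in Abl.2 (-2.94 ± 0.26, adjusted p = 0.00069). Rps7, which can bind Mdm2, lay at 73.8 and 62.7 CPM against 16.1 and 16.7 CPM (-2.42 ± 0.22, adjusted p = 0.000702). Rps21 lay at 583 and 269 CPM against 149 and 99.9 CPM (-2.16 ± 0.46, adjusted p = 0.0122), with libraries of Abl.1 far apart from each other. Rpl22 (-1.39 ± 0.35), Rplp1 (-1.35 ± 0.30) and Rpl38 (-1.32 ± 0.28) were also lower. The count of genes that passed ranged from 7 without replicate 2 of Abl.2 to 59 without replicate 2 of Abl.1, with 58 without replicate 1 of Abl.1 and 12 without replicate 1 of Abl.2, and it was 13 with library totals, which moved the median of all genes by 0.35. A clone left with 1 library is assumed in these fits to vary like the other. Without replicate 2 of Abl.2, Rpl38 and Rplp1 missed the threshold (adjusted p = 0.109 and 0.0590). Mitochondrial ribosomal proteins split the same way, 1 higher and 49 lower of 72, and their summed CPM was 18964 and 27144 in the libraries of Abl.1 against 12929 and 13032 in Abl.2.

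AI was called different from 0.5 in a larger share of these genes than of all genes. The study's quality correction constant (QCC) widens the binomial spread to that measured between replicates, and was 1.87, 1.47 and 2.61 in Experiments 1 to 3, 2.55 in Abl.1 and 2.18 in Abl.2. With it, AI differed from 0.5 in 35 of 60 genes in Experiment 1 (background 18.1%), with 19 maternal (background 9.51%) and 16 paternal (background 8.62%). In Experiment 2 it differed in 36 of 61 genes (background 24.3%), 20 maternal (background 13%) and 16 paternal (background 11.3%). Experiment 3 had 26 of 61 (background 14.2%), 14 maternal (background 7.34%) and 12 paternal (background 6.83%). In Abl.1 there were 30 of 69 (background 22.3%), 16 maternal (background 10.7%) and 14 paternal (background 11.6%). In Abl.2 there were 32 of 70 (background 29.8%), 14 maternal (background 15%) and 18 paternal (background 14.7%). Such calls also depend on the number of counts, which was not matched between these genes and all genes. The median distance of pooled AI from 0.5 was 0.066, 0.082 and 0.078 in Experiments 1 to 3, against 0.047, 0.051 and 0.056 over all genes. In the clones it was smaller than over all genes, at 0.045 against 0.079 (Abl.1) and 0.044 against 0.079 (Abl.2).

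The sizes of imbalance also differed between kidney and clones. In Experiment 1, 11 of 60 ribosomal protein genes (18.3%) had a pooled AI under 0.2 or over 0.8, compared with 4.29% of the other genes. In Experiments 2 and 3 these shares were 14.8% and 11.5% against 5.21% and 5.50%. In the clones the order turned, with 5.80% against 17.5% in Abl.1 and 8.57% against 22.3% in Abl.2. AI between 0.4 and 0.6 was found for 59.0% of the genes in Experiment 2 and for 75.7% in Abl.2, compared with 74.3% and 55.9% of other genes. These shares are descriptions of the groups and were not tested.

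**Figure D3:**
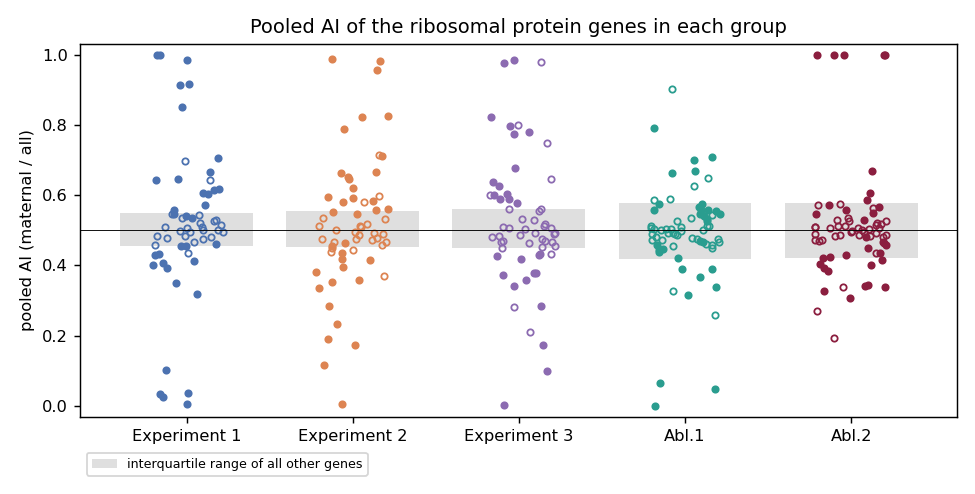
Pooled AI (y axis, maternal share of allelic counts) of each ribosomal protein gene with at least 10 counts in every library of a group (x axis). Filled points differed from 0.5 with the QCC correction, open points did not, and grey bands span the interquartile range of all other genes. The kidney groups have points near 0 and 1 that stand far from the bands, and the clones have fewer.

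Of 59 genes tested in all 5 groups, 5 were maternal and 4 paternal in every one, a share that was not computed over all genes. The maternal set was Rpl10a, Rpl15, Rpl23, Rps3 and Rps9, and the paternal set included Rpl3, Rpl30 and Rps27l. Rpl15, a large-subunit protein, had a pooled AI of 0.850, 0.824 and 0.821 in Experiments 1 to 3, 0.707 in Abl.1 and 0.668 in Abl.2. Rpl3 had 0.381 in Experiment 2, 0.368 in Abl.1 and 0.393 in Abl.2. For these genes kidney and clones leaned the same way, with Rpl3 near the same value. Rpl29 was called paternal in both clones (0.316 and 0.309) and in Experiment 1 (0.406), and missed the threshold at 0.459 in Experiment 2 and 0.482 in Experiment 3.

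In 6 of the 59 genes (10.2%) every one of the 18 kidney libraries lay more than 0.2 away from every one of the 4 clone libraries, against a background of 1.77% of 7359 genes. Rplp1, the acidic stalk protein, was nearly all maternal in the kidney (0.997 to 1 with NEBNext, 0.971 to 0.989 with SMARTseqv4 at 10 ng and 0.968 to 0.982 at 100 pg) and lay at 0.501, 0.516, 0.487 and 0.492 in the clone libraries. The kidney and clone values of Rplp1 did not come near each other.

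Rpl35a, a large-subunit protein whose loss also causes Diamond-Blackfan anaemia in people, lay at 0.974 to 1 over the kidney libraries and at 0.539 to 0.551 in the clones. Rps24 lay at 0.917 to 1 against 0.562 to 0.586, with as few as 16 counts in a kidney library. Rpl30, by contrast, leaned paternal in the kidney (0.00485 to 0.0520 with NEBNext, 0.117 to 0.197 with SMARTseqv4 at 10 ng and 0.143 to 0.201 at 100 pg) and lay at 0.437 to 0.457 in the clones. Rpl5, which with Rpl11 can bind the p53 regulator Mdm2, lay at 0.0308 to 0.173 in the kidney and 0.466 to 0.657 in the clones. Its coverage was erratic, since the libraries of Abl.1 had 68 and 1415 counts, and those of Abl.2 had 116 and 131. The gap was 0.236 for Rpl30, the nearest inside the limit, and 0.183 for Rpl36, the nearest outside it.

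**Figure D4:**
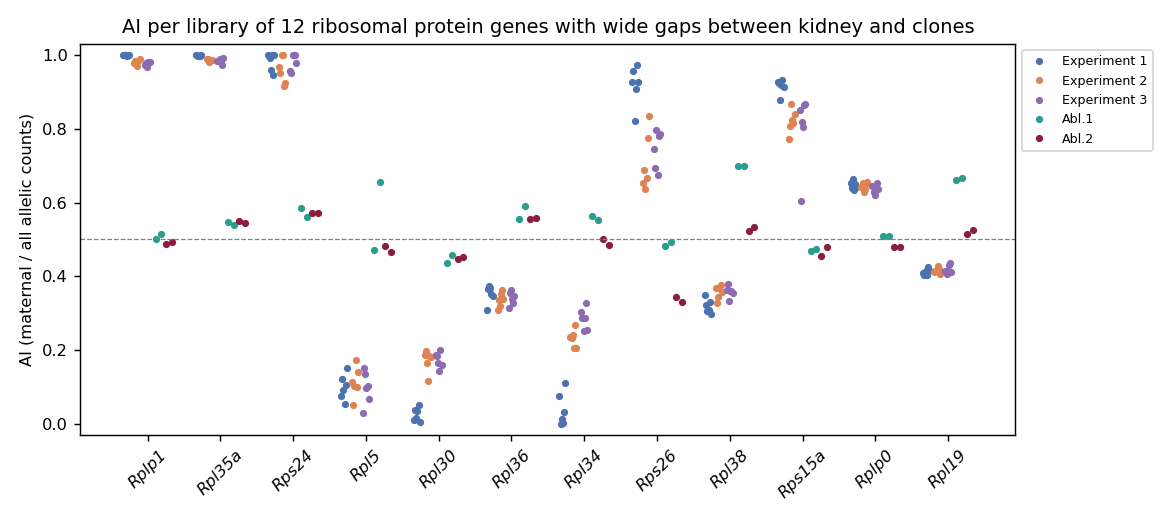
AI (y axis) in each library (points, coloured by group) of 12 ribosomal protein genes with wide gaps between kidney and clone libraries, in falling order of the gap (x axis). The dashed line marks 0.5. Rplp1 to Rpl30 have gaps of 0.452 down to 0.236, and the clone libraries of most genes lie near 0.5.

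The percent of shared windows was set beside these values. It covers whole transcripts and not the sites where the strains differ, and an effect of copies on AI was not tested. Over the 59 genes the distance of AI from 0.5 in Experiment 2 had a Spearman rho of 0.08 with the percent of shared 75-base windows, and the kidney-clone gap had one of -0.05, both given as descriptions over genes that share their libraries. The 6 genes shared a median of 45% of their windows and the other 53 a median of 47.9%. Under 5% was shared by none of the 6 and by 3 of the other 53, which is too few for a comparison. The counts of the copies were then read beside those of the genes. Of 715 other genes that share a 75-base window with a ribosomal protein gene, 471 have an entry in the deposited counts.

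For Rplp1, Rpl35a and Rpl30 the pseudogene copies that have an entry held few of the counts. Those of Rplp1 held 1.68% of the joint counts in Experiment 1 and 4.88% in Experiment 2, those of Rpl35a 0.740% and 0.951%, and those of Rpl30 0.468% and 1.26%. Adding them left the joint AI at 0.972 for Rplp1, 0.986 for Rpl35a and 0.181 for Rpl30 in Experiment 2. For Rps24 they held 13.2% in Experiment 2 and 0.25% in Abl.1, and for Rpl5 2.89% in Experiment 2, 21.4% in Abl.1 and 57.3% in Abl.2. Gm11942, a copy of Rplp1, lay at 0.898, 0.798 and 0.871 in Experiments 1 to 3 and at 0.430 and 0.449 in the clones, so that its AI moved in the same direction as that of Rplp1. Other copies did not all lie on the side of their genes. In Experiment 2 the pooled copies of Rpl35a lay at 0.857, on the side of the gene. Those of Rpl30 (0.839 against 0.172 at the gene), Rps24 (0.36 against 0.957) and Rpl5 (0.824 against 0.115) lay on the other side of 0.5. These 3 values rest on 31, 25 and 17 copy counts. Since the authors kept unique alignments only, a read that matched gene and copy equally well was counted for neither.

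Rps6, the small-subunit target of the S6 kinases, shared 676 of its 804 windows of 75 bases with other genes, and each of these 676 was identical to a stretch of Rps6-ps4. Rps6 lay at 0.466, 0.465 and 0.467 in the kidney groups, and Rps6-ps4 at 0.226, 0.373 and 0.376. In Abl.2 Rps6 was at 0.999 while Rps6-ps4, with 3340 counts, stayed at 0.271, close to its 0.274 in Abl.1. The copies of Rps16 had 297 counts in Experiment 1 against 0 at the gene, and 1215 in Abl.1 against 13. Whether these counts came from Rps16 or from the copies themselves was not tested. Rpl31 was at 0 while its 14 named pseudogenes had 159 to 613 counts in a group. Over all 225 named ribosomal protein pseudogenes the counts came to 0.990% of those of the genes in Experiment 1 and 1.43% in Experiment 2. Rps6-ps4 was singled out after its values were seen.

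AI differed between the kits in 19 of 59 genes (background 10.6%). With SMARTseqv4 (Experiment 2) 8 were more maternal than with NEBNext (Experiment 1, background 5.61%) and 11 less so (background 4.95%), in the test of the allele by kit term. Rpl30 had a mean AI of 0.172 ± 0.029 (SD, n = 6 libraries) in Experiment 2 and 0.0258 ± 0.018 in Experiment 1 (adjusted p = 1.57e-09 in edgeR's quasi-likelihood test). Rpl34 had 0.232 ± 0.023 against 0.0393 ± 0.045 (adjusted p = 1.39e-06 in edgeR). Rpl10a had 0.789 ± 0.013 against 0.665 ± 0.021 (adjusted p = 1.01e-08 in edgeR). In each of these genes the libraries of both kits did not overlap.

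Rps29 moved the other way, from 0.491 ± 0.042 in Experiment 1 to 0.353 ± 0.0088 in Experiment 2 (edgeR, adjusted p = 2.46e-08). Rps15a moved from 0.915 ± 0.020 to 0.821 ± 0.032 (edgeR, adjusted p = 3.5e-05), Rpl9 from 0.462 ± 0.021 to 0.397 ± 0.018 (edgeR, adjusted p = 0.000324) and Rpl7a from 0.541 ± 0.011 to 0.477 ± 0.025 (edgeR, adjusted p = 8.8e-05). Rps13, Rpl13a and Rps3 were more maternal with SMARTseqv4 by 0.0909, 0.0619 and 0.0441. Rps3 passed with edgeR (adjusted p = 3.1e-05) but not with limma on logit AI (adjusted p = 0.0518). Rpl6 (0.286 against 0.0355), Rps26 (0.709 against 0.919) and Rpl41 (0.536 against 0.694) also passed but had as few as 97, 23 and 39 counts in a library. The ranges of 16 of the 19 did not overlap, a share that was not computed over all genes. Without replicate 1 of Experiment 1, 20 genes passed. The median absolute difference over the 59 genes was 0.0231.

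No ribosomal protein gene passed the test of AI between 100 pg and 10 ng. Of 61 tested, 0 passed (background 0.659%) in edgeR's test. An unadjusted p under 0.05 was found for 5 of them and for 817 of all 10020 genes tested. DESeq2 called 1, the QCC test called 1 and limma called 0. On simulated data edgeR's test called 33% of 1.5-fold and 65% of 2-fold changes in the allele ratio, so smaller shifts can be missed. The smallest adjusted p in edgeR's test was 0.0699 and the median absolute difference 0.0121. The libraries of both inputs overlapped in each of the 61 genes, which was not counted over all genes. Rplp1, Rpl35a and Rpl30 had similar values at both inputs (10 ng and then 100 pg), with pooled AI of 0.981 and 0.977, 0.987 and 0.984, and 0.172 and 0.173.

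Between the clones 20 of 69 genes (29.0%) differed in AI, near the background of 26.4% of all genes. Of them 9 (13.0%) were more maternal in Abl.2 (background 14.2%) and 11 (15.9%) less so (background 12.2%). Of these 20, 15 lay together on 4 chromosomes, a share that was not counted over all genes. All 5 genes on chromosome 4 had almost only maternal counts in Abl.2. Among them, Rpl22 lay at 0.458 and 0.456 in Abl.1 and at 1 and 0.999 in Abl.2, and Rpl11, Rps20 and Rps6 had means of 0.998, 0.999 and 0.999 in Abl.2 against 0.466, 0.501 and 0.557 in Abl.1. Genes within 5 Mb had a median AI of 0.999 there as well (118 genes around Rpl11), against 0.513 in Abl.1 (117 genes). On chromosome 10, Rps12, Rps15 and Rps26 lay at 0.326, 0.346 and 0.337 in Abl.2 against 0.488, 0.527 and 0.488 in Abl.1, beside neighbour medians of 0.361, 0.338 and 0.341 in Abl.2.

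In Abl.1 the shifts lay elsewhere. On chromosome 7 Rpl18 and Rpl13a had means of 0.0507 and 0.0651 against 0.485 and 0.415, while the 87 genes within 5 Mb of Rpl13a had a median of 0.167 in Abl.1 and 0.509 in Abl.2. On chromosome 11 Rpl19, Rpl23, Rpl27 and Rpl38 lay at 0.664, 0.788, 0.668 and 0.700 in Abl.1 against 0.521, 0.604, 0.498 and 0.528 in Abl.2, with neighbour medians between 0.662 and 0.669 in Abl.1. Rpl26 and Rpl23a, nearer the other end of that chromosome, lay at 0.492 and 0.478 in Abl.1, beside neighbour medians of 0.507 and 0.495. The copy number of these stretches was not analysed here.

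**Figure D5:**
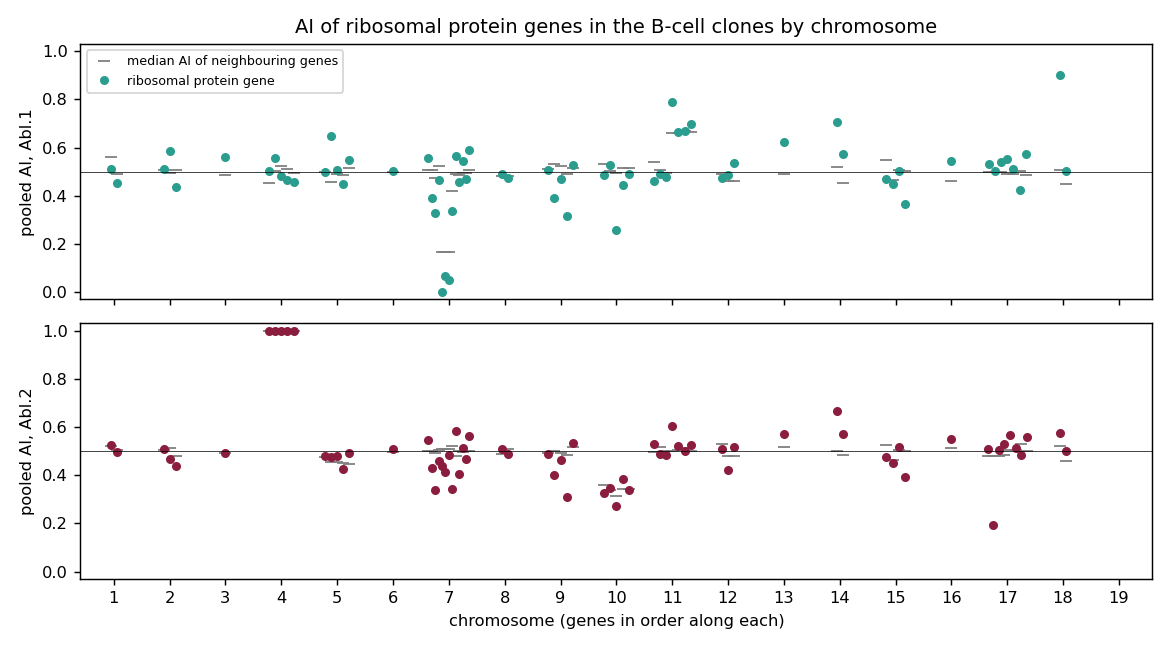
Pooled AI (y axis) of the ribosomal protein genes along the chromosomes (x axis, in order along each) in Abl.1 (top) and Abl.2 (bottom), with grey dashes for the median AI of the genes within 5 Mb of each. Chromosome 4 stands near 1 in Abl.2, Rpl18 and Rpl13a on chromosome 7 near 0 in Abl.1 and 4 genes on chromosome 11 above 0.66 in Abl.1, each with its dashes shifted the same way.

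The libraries of Abl.2 were also compared between their sequencing runs. Over all genes the chi-square comparison gave 10.3 per gene between the runs of replicate 1 and 6.31 between those of replicate 2, beside the 9.95 between the Abl.2 libraries. The median absolute log2 difference between runs was 0.096 for replicate 1 (63 genes) and 0.044 for replicate 2 (62 genes), with 23.8% and 6.45% of them over 0.25, against 16.0% and 9.72% of other genes. The median absolute AI difference was 0.00925 and 0.00551. Rpl5 moved furthest of the genes named here, with 116 counts in the first run of replicate 1 and 314 in the second, and AI of 0.483 and 0.640. Rps20 rose from 10798 to 15333 counts between these runs with AI of 0.999 in both, and Rps21 fell from 3188 to 2371 counts.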

How the data were processed

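Reads were aligned by the authors with STAR 2.5.4a to maternal (129S1) and paternal (Cast/Ei) pseudogenomes of GRCm38, keeping unique alignments. Libraries of an experiment were subsampled to equal size. The deposited tables hold counts of maternal and paternal alleles per gene, summed over SNPs in merged exons without overlaps between genes, so a read over several SNPs counts more than once. The deposited AI tables were not used.

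Groups and replicate numbers came from the sample titles. Abundance was tested on both alleles summed, with edgeR 4.0.16 (quasi-likelihood, TMM, filterByExpr) in R 4.3.3, and AI with an allele by group term on genes with at least 10 counts in every library, both with Benjamini-Hochberg adjustment at 0.05 over all genes tested. AI against 0.5 used the study's proportional test with the QCC and Bonferroni adjustment at 0.05. Kidney and clones were called apart where every pair of libraries differed by over 0.2 in AI. CPM were taken over library totals. Intervals and floors cover counting error only.

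Alternatives were DESeq2 1.42.0, limma 3.58.1 on logit AI, RLE factors, library totals, other filters, a replicate block and each library left out. Fits were tested on simulated data. There the AI fit between clones called 26% of 2-fold and 50% of 4-fold changes in the allele ratio. It also called 30 unchanged genes, of 10068 genes in all. The abundance fit between clones called 15.8% of 2-fold and 87.6% of 8-fold changes, and 6 unchanged genes. Shared windows were read from GENCODE M21 transcripts.

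Members and lists were chosen with earlier results of these data known. Named genes were, per comparison, up to 8 called members in each direction with the largest fold change (at least 100 counts in every library of the higher group), and up to 10 with the largest AI difference (at least 100 counts, ranges apart). In each group, the 5 furthest from 0.5 on each side were named too, as were paralogs, the 5 largest shares in Experiment 2, members without counts in a group, and those with counted pseudogenes. Other names were chosen after their values were seen, such as Rps24, Rpl5, Rpl29 and Rps20. The values of some members, counted in the totals, are not reported here.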

Additional observations from a re-analysis of the deposited data

Results flagged for a closer look

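Within each kidney group, the highest or lowest library was compared with the others by the gap to its nearest neighbour over the range of the group. Of 246 values tested, 19 (7.72%) stood apart from the other libraries of their group, where chance gives about 1 in 20, and 7 of them fell in replicate 1 of Experiment 1.

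In that library the ribosomal protein genes held 1.61% of all counts, against 1.39% to 1.46% in the other 5. Rpl7 (459 CPM), Rps12 (437 CPM), Rps19 (876 CPM), Rps27l (370 CPM), Rps29 (309 CPM) and Rps3 (1130 CPM) were each higher there than in any other library of the group.

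The remaining values were spread over libraries. In Experiment 1, AI was 0.626 for Rpl10a and 0.877 for Rps15a in replicate 3, both the lowest, and 0.997 for Rplp1 in replicate 5, where the others were at 1. In Experiment 2, the AI of Rpl4 was 0.543 in replicate 2 and Rps13 was lowest with 146 CPM in replicate 3. In Experiment 3, Rpl30 was highest with 70.6 CPM and Rps15 lowest with 128 CPM in replicate 1, Rps10 was highest with 28.7 CPM in replicate 5, and Rpl10a was lowest with 80.9 CPM in replicate 6. AI in Experiment 3 was 0.605 for Rps15a in replicate 2, and 0.661 for Rpl22 and 0.512 for Rps20 in replicate 4.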

How the results depend on the processing

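Counts of ribosomal protein genes called that moved by over 1.5 times were few. For Abl.2 against Abl.1 abundance, 23 became 13 with library totals and 7 to 59 leaving out 1 library (5794 of all genes became 3493 to 8397). Library totals turned Rpl37a (0.30) and Rpl38 (0.32) to higher in Abl.2 than in Experiment 2. For AI between kits, 19 became 12 with the QCC test, and 1069 of all genes became 424 with it and 691 with limma. For AI between inputs, 0 became 1 with DESeq2 or the QCC test and 0 to 1 leaving out 1 library, and 66 of all genes became 102 with DESeq2, 26 with limma and 30 to 66 leaving out 1 library. AI against 0.5 without the QCC was called in 42 genes in Experiment 3 (26 with it) and 48 in Abl.1 (30 with it). Over all genes these calls rose from 1976 to 3758, 3827 and 3951 in Experiment 1 with edgeR's allele term, without the QCC and with Benjamini-Hochberg adjustment, from 1444 to 2627, 4104 and 3016 in Experiment 3, from 2502 to 3755, 5753 and 4811 in Abl.1, from 3343 to 5069, 6124 and 5960 in Abl.2, and from 2608 to 4726 and 4841 in Experiment 2 with the first and the last; leaving out 1 library gave 1598 to 1796 in Abl.1. All kidney libraries against 1 clone, chosen after seeing the data, set 11 (Abl.1) or 12 (Abl.2) genes apart in place of 6. Experiment 2 alone against both clones, also chosen after seeing the data, set 9 apart. The cause of these shifts was not tested. Leaving out 1 library gave 49 to 52 abundance calls between kits, 12 to 18 between inputs, 62 to 67 for Abl.1 and 63 for Abl.2 against the kidney, and 17 to 20 (kits) and 16 to 23 (clones) for AI. Replicate numbers were not taken to pair the libraries: same-numbered libraries correlated at -0.04 to 0.05 in the kidney, and at 0.175 in abundance and -0.0113 in AI between the clones, which have only 2 numbers. With the number as a replicate block, 11 genes in place of 17 were called between inputs in abundance and 28 of all genes in place of 66 in AI, and the call of Rps10 was lost (adjusted p = 0.0580 in edgeR). The other blocked counts were 50 and 18 between kits, 21 and 20 between clones and 0 for AI between inputs.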

Other observations

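Ribosomal protein pseudogenes, of which 225 are named in the tables, were themselves counted at low level. Their summed level was 140 to 152 CPM in Experiment 1, 149 to 170 CPM in Experiment 2, 368 to 621 CPM in Abl.1 and 381 to 432 CPM in Abl.2, and 33 of 42 tested were higher in Abl.1 than in Experiment 2 (background 38.0%). These values depend on how reads were divided between a gene and its copies.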
